A study of Homo sapiens with 7 samples.

Results

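SPT5-only peaks near Pol II are sites in the SPT5 list of BJAB cells that no peak of RNA polymerase II (Pol II), TRIM28, O-GlcNAcase (OGA) or O-GlcNAc overlapped, although a Pol II summit lay within 10 kb. The members were chosen by overlap and distance in the peak lists themselves: SPT5 peaks on chromosomes 1 to 22, under 2000 bp wide, free of any peak of the other 4 lists, with their summit within 10 kb of a Pol II summit. These conditions were met by 14532 of the 54885 SPT5 peaks on those chromosomes (26.5%) and of the 56104 in the whole list. The same conditions without the distance limit left another 17343 SPT5-only peaks that lay farther from Pol II.

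The samples were chromatin immunoprecipitation sequencing (ChIP-seq) libraries from BJAB, a human B-cell line that originated in a Burkitt's lymphoma. SPT5, TRIM28, OGA (antibody to NCOAT, another name of the enzyme), O-GlcNAc (antibody RL2) and Pol II (antibody 8WG16) each had 1 library and 1 peak list, and the libraries of mouse and rabbit IgG were not analysed here. All shared the cell line, at multiple passages, and the fixation and library protocol, and the labels give no treatment. With 1 library per target there were no replicates, so the intervals given here are 95% intervals that cover counting error only, and no p-value is given for sets that the lists themselves defined.

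SPT5 and SPT4 form DSIF, a factor that binds Pol II soon after it leaves the promoter, helps to hold it in the promoter-proximal pause and, once phosphorylated, travels with the polymerase along the gene. The 8WG16 antibody binds the heptad repeats of the largest Pol II subunit and is known to prefer repeats that are not phosphorylated, the form that predominates near promoters. TRIM28 is a co-repressor brought to DNA by KRAB zinc finger proteins and has also been described as a pausing factor. O-GlcNAc is a sugar placed on serines and threonines of nuclear proteins by OGT, and OGA is the enzyme that takes it off. The files and the reference used here do not share a genome build, so positions are in hg19 as deposited, no gene is named, and no sequence of the peaks is shown.

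The members were low, narrow peaks. Their median SPT5 fold enrichment, which is the authors' ratio of a peak to a background not given in the sources used here, was 2.94 (interval 2.93 to 2.95), with quartiles of 2.59 and 3.41 and a range of 1.35 to 12.8. SPT5-only peaks farther from Pol II had a median of 3.05 (3.04 to 3.06) and quartiles of 2.68 and 3.51, so that the middle ranges of both sets largely overlapped. The members' median was lower by a small step, with a difference of -0.105 (-0.121 to -0.0905). SPT5 peaks under 2000 bp that did overlap Pol II stood well apart, with a median of 6.91 and quartiles of 4.51 and 9.81. Median widths were 319 bp for the members, 306 bp for the farther SPT5-only peaks and 791 bp for those with Pol II. The median −log10 q value was 5.15 in the members, 4.93 in the farther SPT5-only peaks and 56.3 in SPT5 peaks with Pol II. Height, width and overlap all come from the list that chose the members, so these values describe them and are no test.

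**Figure D1:**
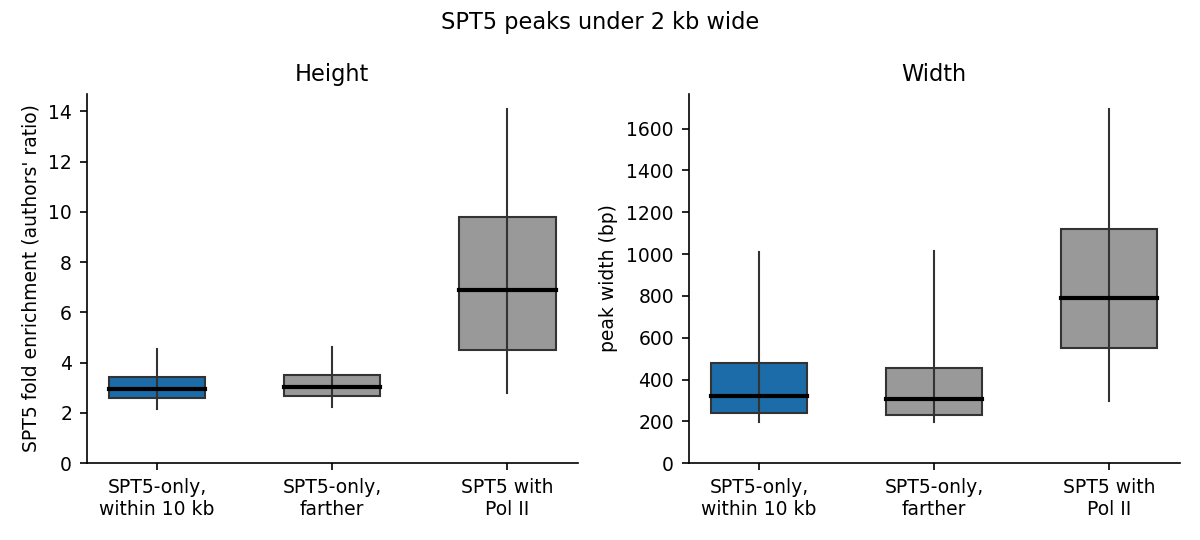
SPT5 fold enrichment (left, the authors' ratio) and peak width in bp (right) of SPT5 peaks under 2000 bp. Boxes run from the first to the last quartile with the median as a black line, and thin lines run from the 5th to the 95th percentile. Median fold enrichment was 2.94 in SPT5-only peaks within 10 kb of Pol II, close to the 3.05 of SPT5-only peaks farther away, while SPT5 peaks with Pol II had 6.91.

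The members crowded toward Pol II. Their median distance from the nearest Pol II summit was 3376 bp (3291 to 3450 bp), with quartiles of 1517 and 6252 bp. Within 1 kb lay 13.9% of the members, within 2 kb 33.1% and within 5 kb 65.1%. Counted per Mb of genome at each distance, SPT5-only peaks numbered 59.2 in the first kb and 95.8 between 1 and 2 kb. Part of the first kb is taken by the Pol II peaks and the SPT5 peaks that overlap them. From there the density was lower with each further kb except between 6 and 7 kb, at 67.1 between 2 and 3 kb, 51.6 between 4 and 5 kb and 39.9 between 9 and 10 kb. Beyond the limit it was 30.8 between 10 and 20 kb, 18.7 between 20 and 50 kb and 8.75 between 50 and 100 kb, so the limit of 10 kb cut through a gradual slope.

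TRIM28-only peaks, chosen in the same way from the TRIM28 list, showed a much flatter profile. They numbered 21.3 per Mb between 1 and 2 kb, 17.8 between 9 and 10 kb, 13.1 between 20 and 50 kb and 10.6 between 50 and 100 kb. At 1 to 2 kb SPT5-only peaks were thus the denser set, and at 50 to 100 kb they were the sparser one. The share of SPT5 peaks that were SPT5-only and under 2000 bp was 11.05% within 1 kb of a Pol II summit, where most SPT5 peaks overlap Pol II, but 80.4% to 83.2% in every 1 kb step from 1 to 10 kb and 83.6% between 10 and 20 kb. Height changed little with distance: the median fold enrichment was 2.80 (2.76 to 2.83) within 1 kb, 2.93 (2.89 to 2.96) between 4 and 5 kb and 3.08 (3.06 to 3.14) between 9 and 10 kb. The members nearest to Pol II were therefore slightly lower, not higher, than those farther out.

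**Figure D2:**
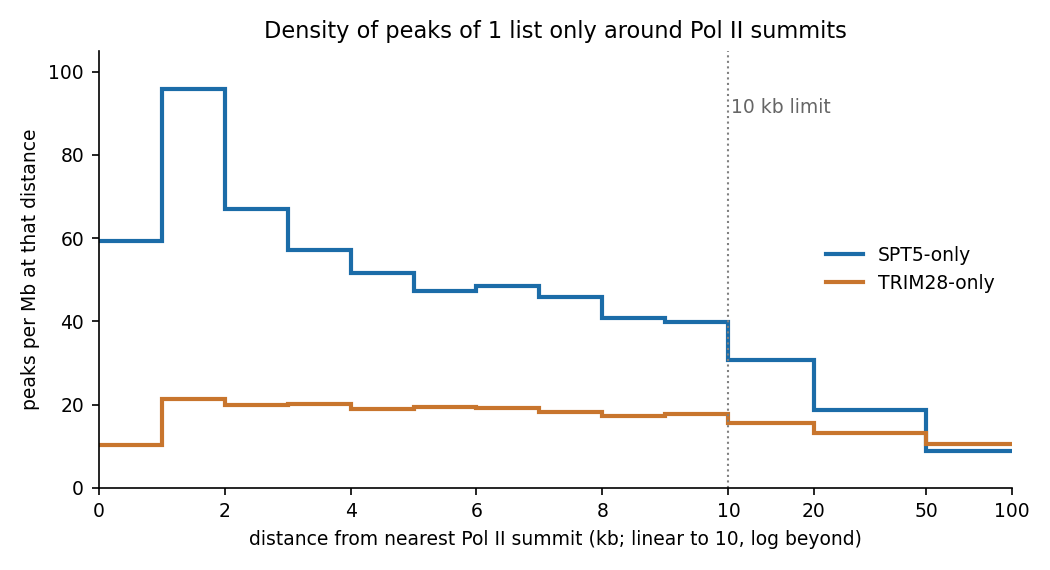
Number of SPT5-only and TRIM28-only peaks (under 2000 bp, chromosomes 1 to 22) per Mb of genome, by distance of the summit from the nearest Pol II summit in kb (linear to 10 kb, logarithmic beyond). SPT5-only peaks reach 95.8 per Mb between 1 and 2 kb and 8.75 per Mb between 50 and 100 kb, while TRIM28-only peaks go from 21.3 to 10.6 per Mb over the same steps.

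Just inside the distance limit lay a peak on chromosome 2, 175488902 to 175489349 (fold enrichment 2.60, 10000 bp from Pol II), one on chromosome 7, 158597301 to 158597625 (4.24, 9998 bp), and one on chromosome 6, 160193123 to 160193350 (3.37, 9995 bp). Just outside it lay peaks on chromosome 2, 64861319 to 64861908 (3.58, 10003 bp), chromosome 12, 109323965 to 109324200 (3.38, 10004 bp), and chromosome 2, 55104158 to 55104365 (3.14, 10005 bp). At the near end, the 3 members closest to a Pol II summit lay 147, 168 and 168 bp away, on chromosome 11 at 78061475 to 78061918, chromosome 10 at 93901543 to 93901759 and chromosome 20 at 41607346 to 41607626. All 3 of these sat beside Pol II peaks, of 217, 234 and 352 bp, that no SPT5 peak overlapped, and their own fold enrichments were 2.53, 2.34 and 3.84.

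For most members, the next SPT5 peak toward Pol II overlapped Pol II or was another member. Members lie within 10 kb of Pol II by definition, no limit was set on the gaps, and no other set was compared. The shares below therefore describe the members and are no test. The Pol II peak nearest to a member overlapped an SPT5 peak of its own for 97.7% of the members (14194 of 14532), and that SPT5 peak was the higher one in 94.2% of those cases. Its median fold enrichment, counted per member, was 7.76 (7.67 to 7.86), and the median ratio of the member to it was 0.393 (0.389 to 0.398). On the way from a member to its Pol II summit, the next SPT5 peak overlapped Pol II for 47.5% of the members (46.7% to 48.3%) and was another member for 46.04%. For 5.26% it was an SPT5 peak of some other kind, mostly wider or overlapped by another list, and for 1.23% no SPT5 peak lay in between. Gaps to that next peak varied widely. The median was 582.5 bp (548 to 617 bp) to an SPT5 peak at Pol II, with quartiles of 199 and 2522 bp. To another member it was 429 bp (411 to 449 bp), with quartiles of 187 and 1107 bp.

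Only about 1 in 3 Pol II peaks were the nearest Pol II peak of a member. Having a member means this throughout, so a Pol II peak counted as without one can still have a member within 10 kb. A second Pol II summit lay that close on the opposite side for 21.02% of the members. Of the 19336 Pol II peaks on chromosomes 1 to 22, 6568 (34.0%, 33.3% to 34.6%) were the nearest Pol II peak of at least 1 member. Of these, 3351 had exactly 1 member, 1398 had 2, 721 had 3, 392 had 4, 266 had 5 and 440 had 6 or more, with 20 as the most. The 440 Pol II peaks with 6 or more members made up 2.28% of Pol II peaks and held 22.9% of the members. TRIM28-only peaks within 10 kb were fewer and more often single. There were 4615 of them, against 14532 SPT5-only peaks, and they belonged to 3596 Pol II peaks. Of these Pol II peaks 78.3% had 1, against 51.02% of the Pol II peaks with SPT5-only peaks. A sparser set leaves more Pol II peaks with 1, and the part of this in the difference was not tested.

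The height of the Pol II peak did not mark it out as having members. Pol II peaks with a member had a median Pol II fold enrichment of 4.87 (4.79 to 4.98), and those without had 4.91 (4.84 to 4.98). Divided into 5 groups of equal size by Pol II fold enrichment, 35.4% of Pol II peaks had a member in the lowest group, 33.7%, 31.6% and 34.1% in the next 3, and 34.9% in the highest. Width differed more, with a median of 542.5 bp (531 to 554 bp) with a member and 488.5 bp (481 to 496 bp) without. The Pol II peaks with the most members were the weaker ones. Their median Pol II fold enrichment was 5.19 (4.87 to 5.54) with 3 members, 4.08 (3.83 to 4.44) with 6 or more and 3.56 (3.33 to 3.98) for the 52 peaks with 10 or more.

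Members that shared a Pol II peak with others were a little higher and wider than single ones. The 3324 members in groups of 6 or more had a median fold enrichment of 3.01 (2.98 to 3.03) and a median width of 347 bp, those in groups of 2 to 5 had 2.95 and 325 bp, and the 3351 single members had 2.86 (2.84 to 2.89) and 288 bp. Single members also lay nearest to Pol II, with a median distance of 1617 bp (1549 to 1691 bp). The median was 3512 bp in groups of 2 to 5 and 4712.5 bp in groups of 6 or more. Members within 1 kb of Pol II were lower and narrower than those farther out, with medians of 2.80 and 289 bp. The part of distance in the differences between groups was not tested. By what their Pol II peak carried, members differed little in height. The 61.9% of members whose Pol II peak carried TRIM28 had a median fold enrichment of 2.89 (2.87 to 2.90), and the others had 3.05 (3.02 to 3.07). Members whose Pol II peak carried O-GlcNAc lay farther out, at a median of 3911 bp (3776 to 4079 bp), than the others at 3103 bp (3023 to 3202 bp). Members cannot overlap an O-GlcNAc peak by definition, so such a peak takes ground near the Pol II summit. Its part in this distance was not tested. Overlap with TRIM28 did not come with a higher median SPT5 fold enrichment. The 2428 SPT5 peaks that met every condition except that TRIM28 alone overlapped them also had a median of 2.94 (2.91 to 2.98). They were wider, with a median of 390 bp, and their median −log10 q was higher, at 7.11 (6.90 to 7.42) against 5.15 in the members.

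The choice of members did not look at what else lay at those Pol II peaks, since only the members had to be free of the other factors. A TRIM28, O-GlcNAc or OGA peak there can still take ground from members, so these shares are not independent of the choice. TRIM28 was present at 63.5% of the Pol II peaks with a member and 58.9% of those without, a difference of 4.67 percentage points (Newcombe interval 3.22 to 6.11). It was 9.68 points (7.27 to 12.04) where no other Pol II summit lay within 20 kb, 3.12 (1.41 to 4.82) when all lists were limited to a −log10 q of 5 or more, and 3.10 (1.58 to 4.62) when members had to lie within 5 kb. Within groups of equal Pol II height the difference was 8.07 points (4.77 to 11.3), 6.53 (3.57 to 9.39) and 6.52 (3.81 to 9.14) in the 3 higher groups, but 2.34 (-0.933 to 5.62) and 0.0294 (-3.30 to 3.36) in the 2 lowest, where the interval included 0. By number of members, TRIM28 was present at 62.8% to 65.2% of Pol II peaks with 1 to 4. The share was 57.9% (51.9% to 63.7%) with 5, 59.3% (54.7% to 63.8%) with 6 or more and 44.2% (31.6% to 57.7%) with 10 or more. Pol II peaks with a member were also wider, and the part of width was not tested. OGA, the rarest of the 5 targets, was present at 7.60% of Pol II peaks with a member and 5.34% of those without, a difference of 2.26 points (1.52 to 3.02), and the difference was positive in all 5 groups of Pol II height, from 1.08 to 3.30 points, with an interval that included 0 only in the lowest group. SPT5 itself, whose list supplied the members, overlapped 97.5% of Pol II peaks with a member and 94.4% of those without.

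O-GlcNAc went the other way in the pooled count. It was present at 38.5% of Pol II peaks with a member and 41.3% of those without, a difference of -2.81 points (-4.26 to -1.35). The deficit was largest at low Pol II peaks, at -3.99 points (-5.97 to -1.92) and -7.28 points (-9.90 to -4.56) in the 2 lowest groups, and the interval included 0 in the 3 higher ones. Its size depended on how members were chosen: it was -7.20 points (-8.84 to -5.54) with a −log10 q of 5 or more in all lists and -6.53 points (-8.03 to -5.01) with members within 5 kb, but -0.0406 points (-1.46 to 1.38) with members within 20 kb. It did not hold for Pol II peaks that stood alone: where no other Pol II summit lay within 20 kb, the difference was 2.37 points (-0.243 to 4.98). Over all Pol II peaks, with members 500 bp clear of any peak of another list, the difference was -0.845 points (-2.39 to 0.712). By number of members there was no steady fall. O-GlcNAc was present at 38.3% of Pol II peaks with 1 member, 39.9% with 2, 42.2% with 3 and 42.3% with 4. The share was 34.2% with 5 and 29.1% (25.04% to 33.5%) with 6 or more. Pol II peaks with 6 or more members were also weaker, with a median Pol II fold enrichment of 4.08, and the part of this was not tested.

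Where a Pol II peak had 2 to 5 members, they mostly lay to 1 side of it. Taken singly they showed no preference for a direction of the chromosome, with 49.0% at higher coordinates than the Pol II summit. Yet of the 3217 Pol II peaks with 2 or more members, 2294 (71.3%, 69.7% to 72.9%) had all of them on the same side. That share was 79.5% with 2 members, 72.4% with 3, 70.7% with 4, 62.4% with 5 and 49.5% with 6 or more. TRIM28-only peaks were less one-sided at the same number: 69.1% of Pol II peaks with 2 of them had both on the same side, 44.6% with 3 and 22.9% with 4. The differences between SPT5-only and TRIM28-only peaks were 10.4 percentage points (6.21 to 14.7) at 2 peaks, 27.8 (18.8 to 36.4) at 3 and 47.8 (31.0 to 59.4) at 4. A Pol II peak with a neighbour on 1 side loses ground there, because members count for the nearest Pol II peak only. Where no other Pol II summit lay within 20 kb, all members were on 1 side at 63.6% of Pol II peaks with 2 or more (626 of 984, 60.6% to 66.6%), and at 61.2% (52.3% to 69.4%) with exactly 4, against 5.56% (1 of 18) for TRIM28-only peaks. At such Pol II peaks with 6 or more members, most had members on both sides, and 32.4% (47 of 145, 25.3% to 40.4%) had them on 1.

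**Figure D3:**
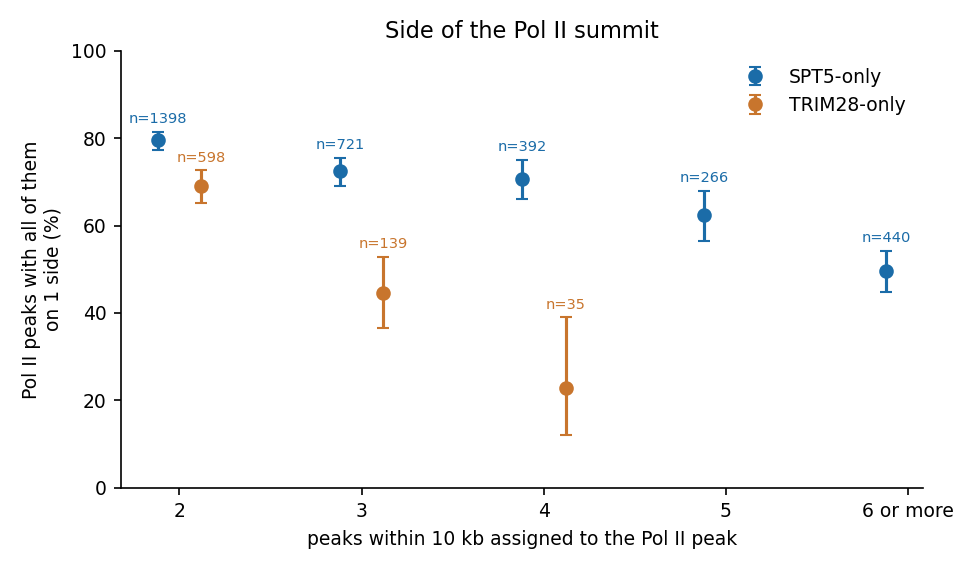
Share of Pol II peaks whose SPT5-only or TRIM28-only peaks within 10 kb all lie on 1 side of the Pol II summit (y axis, %), by the number of such peaks (x axis). Points are shares with 95% Wilson intervals, n is the number of Pol II peaks, and points with under 20 Pol II peaks are not drawn. With 4 peaks the share was 70.7% for SPT5-only and 22.9% for TRIM28-only peaks.

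One-sidedness was more common at Pol II peaks that carried O-GlcNAc. Among Pol II peaks with 2 or more members, all members were on 1 side at 75.3% of the 1247 with O-GlcNAc and 68.8% of the 1970 without, a difference of 6.52 points (3.34 to 9.63). Where no other Pol II summit lay within 20 kb the difference was 13.01 points (6.98 to 19.0), from shares of 69.6% and 56.6%. The number of members was not held equal in these comparisons. Pol II peaks with 6 or more members carried O-GlcNAc less often than those with 2 (29.1% against 39.9%). They were also less often one-sided (49.5% against 79.5%), and the part of this in the difference was not tested. With and without TRIM28 the shares were 71.8% and 70.4%, a difference of 1.39 points whose interval (-1.83 to 4.66) included 0, and with and without OGA 73.7% and 71.1% (difference 2.60 points, -3.39 to 7.92). SPT5 overlapped nearly all of these Pol II peaks, and 71.6% of those with it were one-sided, against 54.8% of the 62 without (difference 16.8 points, 4.94 to 29.2). Where no other Pol II summit lay within 20 kb, that difference was 1.75 points, with an interval (-15.9 to 22.99) that included 0. By Pol II height, 66.4% and 67.7% of the Pol II peaks in the 2 lowest groups were one-sided, against 73.2% to 75.8% in the 3 higher ones.

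The side of the members went with the layout of the Pol II site itself. At the 2294 Pol II peaks with 2 or more members, all on 1 side, the O-GlcNAc summit lay on the far side of the Pol II summit from the members in 651 of 939 cases (69.3%, 66.3% to 72.2%). Its median position was 122 bp from the Pol II summit, away from the members (112 to 132 bp). With 4 or more members on 1 side the share was 73.4% (67.5% to 78.5%, 179 of 244). It was 68.02% where no other Pol II summit lay within 20 kb and 66.5% where all members were at least 2 kb from the Pol II summit. At Pol II peaks with 2 or more TRIM28-only peaks, all on 1 side, O-GlcNAc summits lay away from those peaks in 41.7% of 144 cases (33.9% to 49.8%). The difference from the SPT5-only share was 27.7 points (19.0 to 35.9), and with 1 or more peaks on 1 side it was 14.7 points (11.1 to 18.1), from 65.8% and 51.1%.

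TRIM28 and SPT5 summits leaned the same way by less. TRIM28 summits lay away from the members at 56.6% of one-sided Pol II peaks (54.02% to 59.1%, 820 of 1449), by a median of 27 bp. Where all members were at least 2 kb from the Pol II summit, the TRIM28 share was 53.6% with an interval (49.9% to 57.3%) that included an even division. Members cannot overlap a TRIM28, O-GlcNAc or OGA peak by definition, so those peaks also take ground from them. For SPT5 summits the share was 65.01% (63.0% to 67.0%), by a median of 11 bp, and 61.2% where no other Pol II summit lay within 20 kb. In all, 15.2% of SPT5 summits lay more than 550 bp away, on the side without members. The SPT5 peak that covered the Pol II summit reached a median of 521.5 bp toward the members and 611 bp away from them, but members lie outside that peak by definition, so ground it takes on 1 side is ground that members cannot have. Pol II peaks, which members also cannot overlap, were balanced: their edges lay a median of 234.5 bp toward and 239 bp away from the members, and the longer arm pointed toward the members in 49.0% (46.9% to 51.02%). These medians fall short of those of the SPT5 peak, so this balance does not bear on the ground that the SPT5 peak takes. Against Pol II peaks with 2 or more TRIM28-only peaks on 1 side, the share was higher by 9.98 points for SPT5 summits (5.06 to 15.0), and by 5.29 points for TRIM28 summits, with an interval (-0.540 to 11.1) that included 0. OGA summits lay away in 104 of 185 cases (56.2%, 49.01% to 63.2%), a share not distinguishable from an even division at this count. The side tests were chosen after the one-sidedness was seen.

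**Figure D4:**
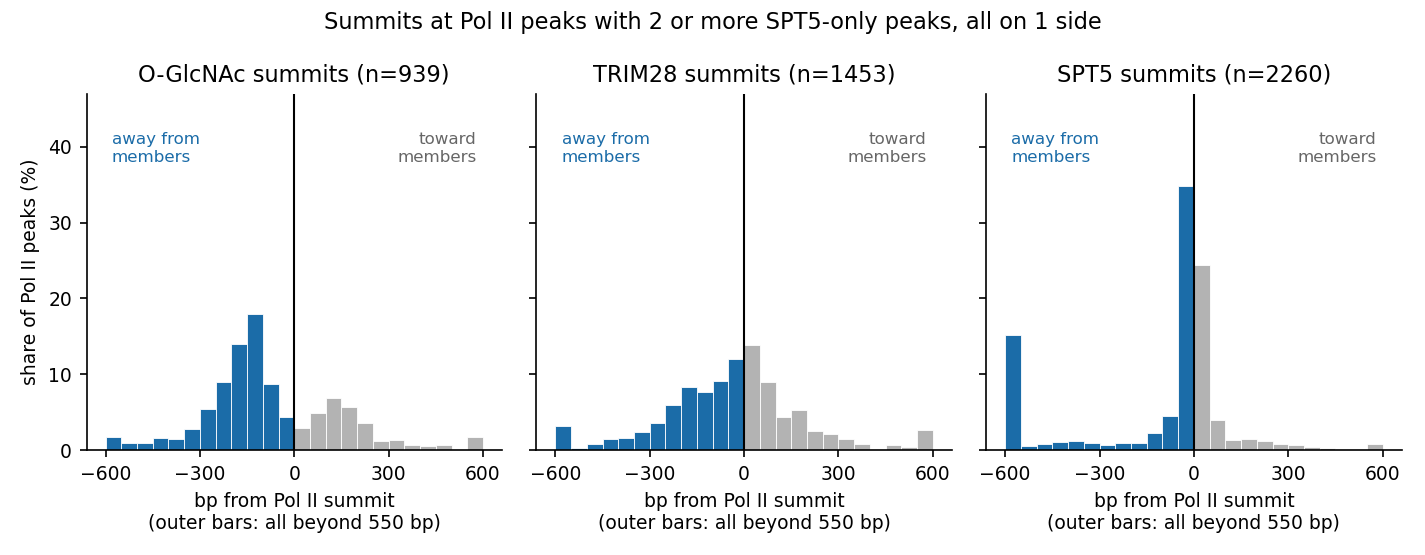
Position of the O-GlcNAc, TRIM28 and SPT5 summits (x axis, bp from the Pol II summit, negative away from the members) at Pol II peaks with 2 or more members, all on 1 side. Bars give the share of Pol II peaks in % per 50 bp, and the outer bars hold all summits beyond 550 bp. O-GlcNAc summits form 1 group to each side of the Pol II summit, and the larger one, with 651 of 939, lies away from the members.

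The surroundings of the members held more of the other targets than those of the farther SPT5-only peaks. A TRIM28 peak lay within 1 kb, edge to edge, of 23.3% of the members and 6.32% of the farther SPT5-only peaks, a difference of 17.0 points (16.2 to 17.7). For O-GlcNAc the shares were 7.38% and 0.346% (difference 7.04 points, 6.61 to 7.48), and for OGA 1.97% and 0.657% (1.32 points, 1.07 to 1.58). Nearness to Pol II was what chose the members, and its part in these shares was not tested. Median gaps to the nearest TRIM28 peak were 3128.5 bp for the members and 14634 bp for the farther peaks. A second Pol II summit on the opposite side, also within 10 kb, was present for 21.02% of the members.

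Chromosomes differed moderately in how many members they carried. Members numbered from 58.5 per 100 Pol II peaks on chromosome 21 (120 members) to 92.4 on chromosome 20 (500 members), with 90.9 on chromosome 7 and 88.1 on chromosome 22. The share of Pol II peaks with a member varied less, from 29.6% on chromosome 4 (26.3% to 33.2%) to 38.7% on chromosome 22 (34.7% to 42.7%). Chromosome 7 had the lowest members by fold enrichment, with a median of 2.66, and chromosome 4 the highest, with 3.11. Farther SPT5-only peaks were also lowest on chromosome 7, with a median of 2.80, which was the lowest of all chromosomes for both sets.

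The 8 highest members all exceeded the median of 6.91 of SPT5 peaks with Pol II. The highest of all lay on chromosome 4, 166262844 to 166264178, with a fold enrichment of 12.8 and a width of 1335 bp, 777 bp from the summit of a Pol II peak at 166264439 to 166264752 that had a Pol II fold enrichment of 2.73. The SPT5 peak at that Pol II site also had 12.8. Within 20 kb of this member lay 16 SPT5 and 8 Pol II summits but 1 TRIM28, 1 O-GlcNAc and 0 OGA summits. The second, on chromosome 4 at 74438733 to 74439261 (11.5), was 1 of 9 members of a Pol II peak at 74439482 to 74440282, with 21 SPT5 summits within 20 kb. The other 6 of the 8 highest lay on chromosome 1 at 192630279 to 192631908 (10.4), chromosome 4 at 65883866 to 65884395 (10.3), chromosome 19 at 49117536 to 49118831 (9.91) and at 19041938 to 19043715 (9.78), chromosome 8 (9.60), and chromosome 2 at 46811510 to 46812075 (9.12). Of these 8 members, 7 lay at lower coordinates than their Pol II summit. The Pol II peak of 5 of the 8 carried SPT5 and none of the other 3 factors, and that of the member at 49117536 carried all 4.

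The longest arrays surrounded small Pol II peaks. On chromosome 14, 20 members spread from 21701725 to 21721345 around a Pol II peak of 239 bp at 21711028 to 21711266, with 9 at lower and 11 at higher coordinates. Their fold enrichments ran from 2.56 to 4.88 with a median of 3.32, against 6.07 for the SPT5 peak over the Pol II summit, and together they covered 9033 bp of the 19621 bp they spanned. No TRIM28, OGA or O-GlcNAc peak overlapped this Pol II peak, whose Pol II fold enrichment was 2.81, and no other Pol II summit lay within 20 kb. On chromosome 20, 18 members ran from 46141101 to 46160715 around a Pol II peak of 208 bp (Pol II fold enrichment 2.46) that carried SPT5, TRIM28 and OGA, with 8 members at lower and 10 at higher coordinates. Another 18, with 9 on each side, ran from 46200905 to 46219861 around a Pol II peak of 243 bp (3.54) that carried SPT5 alone. In the chromosome 20 arrays the SPT5 peak at Pol II had a fold enrichment of 3.69 and 3.30. That was below their highest members, at 3.90 and 3.87. TRIM28 peaks also lay among the members of both chromosome 20 arrays. In these 3 arrays the median widths of the members were 368, 338.5 and 304 bp. Each array was a row of separate calls in the deposited list, and members are under 2000 bp wide by definition.

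**Figure D5:**
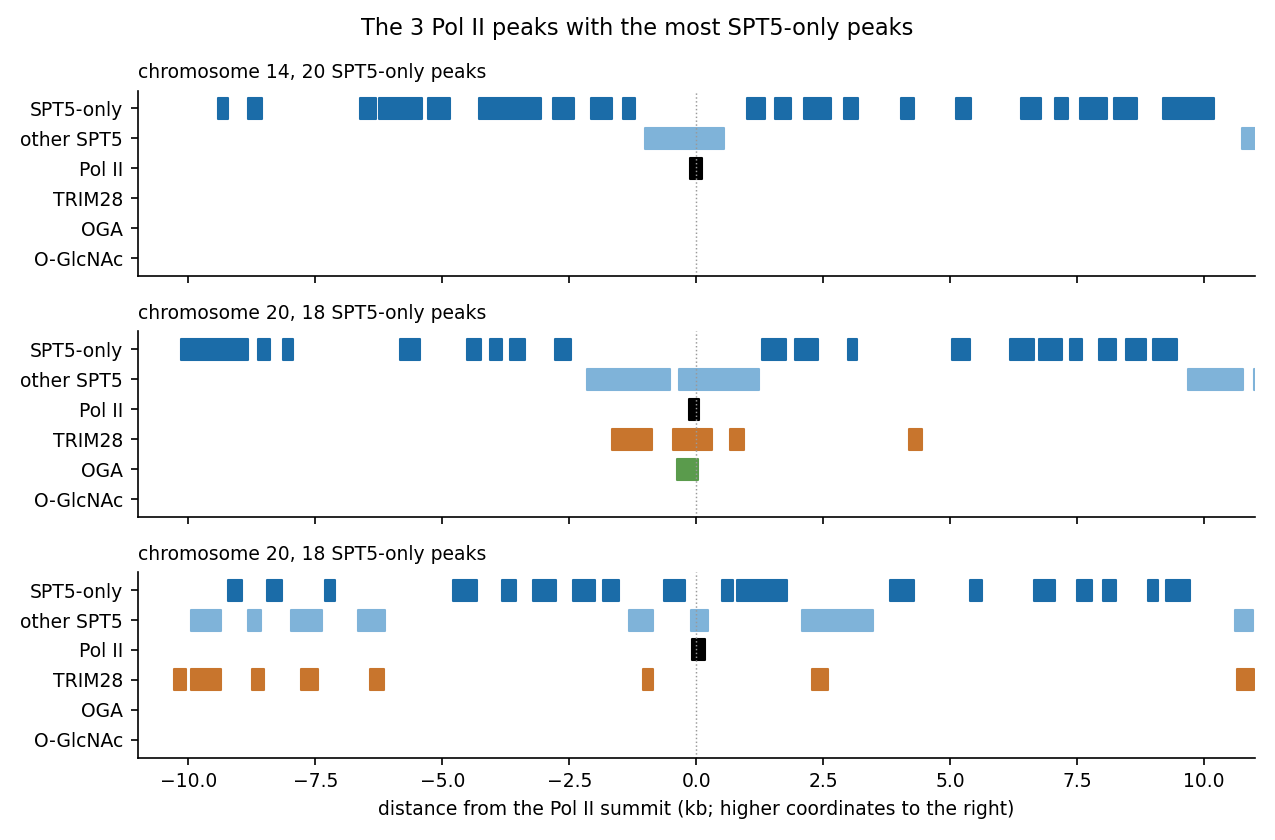
Peaks of each list around the 3 Pol II peaks with the most members (x axis, kb from the Pol II summit). Each bar is 1 peak drawn to scale, with members in the top row and other SPT5 peaks in the second. The 20, 18 and 18 members lie on both sides of Pol II peaks of 239, 208 and 243 bp.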

How the data were processed

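ChIP-seq of 5 targets was used. Chromatin was cross-linked for 5 min in 1% formaldehyde, each precipitation took 10 µg of antibody and each library 25 ng of DNA, per the labels' protocols. Per the submitters' processing notes, bcl2fastq 2.17, Trimmomatic 0.30, Bowtie2 2.1.0 and build hg19 were used. Not given in the sources used here are the peak caller, its threshold and control, and the depth of each library is unknown. The authors deposited 1 narrowPeak list per sample, with fold enrichment (a ratio), −log10 p and −log10 q values and the summit position. The deposited fold was used only within a list. A shallower library gives a shorter list, so a peak free of other factors means that none was called there.

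Overlap was at least 1 bp. Each member was assigned to the Pol II peak with the nearest summit. Shares have Wilson, differences Newcombe and medians order-statistic intervals at 95%. Differences of medians combine both intervals in the same way. Members of 1 Pol II peak are not independent, so intervals over members are too narrow. Density divides peaks by the genome nearest to a Pol II summit at that distance, without chromosome ends. Overlaps and gaps were checked against bedtools 2.31.1, and the assignment was tested on simulated data. Named sites are the 8 highest members, the 3 nearest to Pol II, 3 on either side of the distance limit and the 3 Pol II peaks with the most members. The members and comparisons were chosen with earlier results of these data known. The alternatives were another threshold, distance limit, width limit, set of chromosomes, distance measure and spacing from other peaks, and, chosen after seeing the data, Pol II peaks that stand alone and other sets of one-sided Pol II peaks. Planned work on genes and sequence was not run, since the reference was of another build. Python 3.11.15, numpy 2.4.6, pandas 2.3.3, scipy 1.17.1 and matplotlib 3.10.9 were used.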

Additional observations from a re-analysis of the deposited data

Results flagged for a closer look

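Peaks that the choice of members left out also lay near Pol II. Chromosome X held 243 SPT5-only peaks under 2000 bp within 10 kb of a Pol II summit, with a median fold enrichment of 3.10 (2.98 to 3.21) and a median width of 298 bp, and chromosome Y held 14. SPT5-only peaks of 2000 bp or wider numbered 265 within 10 kb on chromosomes 1 to 22. They were higher, with a median fold enrichment of 5.37 (5.15 to 5.53), lay a median of 5410 bp from Pol II, and the widest spanned 13992 bp.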

How the results depend on the processing

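Of 87 alternative values for 12 results, 35 moved, 1 reversed and 51 stayed close, which means within the reported interval or, for the number of members, within 1.5 times. The cause of these changes was not tested, beyond what each setting leaves out. The reversed value was the O-GlcNAc difference between Pol II peaks with and without a member, which was 2.37 points where no other Pol II summit lay within 20 kb. There 31.4% of Pol II peaks had a member, the TRIM28 difference was 9.68 points and the one-sided share 63.6%. When every list was limited to peaks with −log10 q of 5 or more, there were 7933 members, of median fold enrichment 3.37 (-0.145 against farther peaks) and width 416 bp. At that threshold 25.9% of Pol II peaks had a member, the TRIM28, O-GlcNAc and OGA differences were 3.12, -7.20 and 1.502 points, the ratio to the SPT5 peak at Pol II was 0.436, and the next SPT5 peak overlapped Pol II for 57.8%. With a limit of 5 kb there were 9454 members, of fold enrichment 2.89 (-0.155) and width 313 bp. Then 28.3% of Pol II peaks had a member, the TRIM28 and O-GlcNAc differences were 3.10 and -6.53 points, and the next SPT5 peak overlapped Pol II for 60.7%. With 20 kb there were 20191 members, the fold enrichment was 2.97 (-0.0820), the share of Pol II peaks 38.9%, the O-GlcNAc difference -0.0406 points and the share with Pol II next 39.1%. Without a width limit the fold enrichment was 2.95. With members 500 bp clear of other peaks it was 2.97 (-0.0834), 27.2% of Pol II peaks had a member, the O-GlcNAc difference was -0.845 points, the one-sided share 77.2% and the share with Pol II next 39.2%. That last share was 46.6% with distance taken between edges. With 1 or more members on 1 side, O-GlcNAc summits lay away from them in 65.8%. No paired analysis was possible because each target had 1 library.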
